A study of Mus musculus with 10 samples.

Results

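The cytosolic ribosomal protein genes described here are 83 of the 55414 genes in the count files. They were taken by symbol: Rpl or Rps followed by a number and at most a short paralog suffix, the stalk genes Rplp0, Rplp1 and Rplp2, and Rpsa, without the pseudogenes that carry -ps in their name. Of 87 symbols that matched, 83 had at least 10 counts in every library and 4 did not. The 83 divide into 51 genes of the large subunit and 32 of the small subunit. No measured difference between the groups entered this choice, but the count minimum was applied to the same libraries.

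RNA of mouse jejunum, the middle stretch of the small intestine, was sequenced in 10 libraries, 5 called control and 5 called RetSat ko. All mice were male C57BL/6J with RetSat flox/flox alleles, all received tamoxifen for 5 days, and all then ate a high-fat diet (60 kcal% fat) for 14 weeks. The control group was villin-Cre-ERT2 (-) and the RetSat ko group was villin-Cre-ERT2 (+). Villin drives expression in the intestinal epithelium, so the recombinase is expected there and not in the muscle, immune or fat cells of the same piece of tissue. Retsat encodes retinol saturase, an enzyme that saturates a double bond of retinol. Since the controls carry no Cre, the presence of an activated Cre and the loss of Retsat cannot be told apart. Ages are not in the labels used here, and the labels do not say outright that each library is a different animal, so each p-value rests on the spread between libraries, part of which may be technical.

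A cytosolic ribosome is built from a large subunit, which joins amino acids, and a small subunit, which reads the mRNA. Their proteins are made in near equal numbers, and the mRNAs begin with a C followed by a run of C and T, the terminal oligopyrimidine tract or TOP, through which the kinase mTORC1 and the protein LARP1 adjust their translation and stability. In the small intestine ribosome production is known to be high in the dividing cells of the crypts and lower in the mature cells of the villi.

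The start sites of the members are shown first, because a pyrimidine run at the start is the sequence feature the family is known for and the selection by symbol did not use it. RefSeq promoters on GRCm38.p6 matched 61 of the 83 members by symbol. Each line below gives 40 bases before the first listed start and 20 from it onward, on the gene's strand. Capitals mark the pyrimidine run that begins at the start where a C is followed by at least 4 pyrimidines, or otherwise a TOP core motif (CTTTCC or the related CTTTTC, then CTCTTC and its neighbour CTCTCC, and last CCTTTC with the similar CCTTTT; they overlap one another and were searched on the gene's strand only). The first 5 lines are those of the 3 highest fold changes in each subunit that had a promoter, the next 5 are those of the 3 lowest in each subunit that had one, and the last 3 were picked for their clear runs.
Rps21: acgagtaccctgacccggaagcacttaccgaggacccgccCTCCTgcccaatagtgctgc
Rps12: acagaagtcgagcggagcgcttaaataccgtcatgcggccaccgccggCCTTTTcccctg
Rpl41: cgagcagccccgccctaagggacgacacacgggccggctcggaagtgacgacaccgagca
Rpl36a: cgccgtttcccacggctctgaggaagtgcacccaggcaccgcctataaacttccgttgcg
Rpl35: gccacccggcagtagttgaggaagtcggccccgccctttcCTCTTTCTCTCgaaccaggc
Rpl32l: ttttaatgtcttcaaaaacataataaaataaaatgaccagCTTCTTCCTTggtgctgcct
Rpl10: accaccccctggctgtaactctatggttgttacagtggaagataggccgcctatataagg
Rps4x: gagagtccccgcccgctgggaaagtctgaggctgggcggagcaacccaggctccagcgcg
Rps25: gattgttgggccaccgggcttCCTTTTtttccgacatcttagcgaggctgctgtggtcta
Rps27l: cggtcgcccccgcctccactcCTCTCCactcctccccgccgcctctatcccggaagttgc
Rps6: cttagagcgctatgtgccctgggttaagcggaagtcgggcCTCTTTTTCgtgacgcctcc
Rps18: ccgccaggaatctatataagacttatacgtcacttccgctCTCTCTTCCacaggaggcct
Rpl15: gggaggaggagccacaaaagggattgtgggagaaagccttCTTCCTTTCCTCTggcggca

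These windows lie at chr2:180257339-180257398 (+) for Rps21, chr10:23787190-23787249 (-) for Rps12, chr10:128549149-128549208 (-) for Rpl41, chrX:134585614-134585673 (+) for Rpl36a and chr2:39005112-39005171 (-) for Rpl35. Those of the next 5 are chr10:20208399-20208458 (+) for Rpl32l, chrX:74270776-74270835 (+) for Rpl10, chrX:102189372-102189431 (-) for Rps4x, chr9:44407674-44407733 (+) for Rps25 and chr9:66946046-66946105 (+) for Rps27l. Rps6 is at chr4:86857348-86857407 (-), Rps18 at chr17:33955646-33955705 (-) and Rpl15 at chr14:18270967-18271026 (-). Runs from the start stand in Rps21 (5 bases) and Rpl35 (11 bases), both among the highest fold changes, while Rpl41 and Rpl36a, also among the highest, have neither a run nor a core in the window. Rps6, Rps18 and Rpl15 have runs of 9, 9 and 13 bases. Among the lines with a low fold change, Rpl32l has a run of 10 bases, Rpl10 and Rps4x have no capital, and Rps25 and Rps27l have a core that begins 19 bases before the listed start. The 13 windows thus hold runs or cores at both ends of the fold-change order and lack them at both ends. The only run at the low end is that of Rpl32l, which had 16 to 33 counts per library. Its log2 fold change was -0.18 ± 0.298 (SE), so its place in the order is uncertain.

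Over all 61 members with a promoter, 27 (44.3%) had a core within 25 bases of a listed start on either side, against 13% of all 27025 genes with a promoter. For each share in this paragraph a gene was counted if any of its listed starts qualified, not only the first. The share was 50% among 38 large subunit members and 34.8% among 23 small subunit members. Within 10 bases of a listed start the shares were 26.2% of members and 5.01% of all genes. A C at a listed start followed by at least 4 pyrimidines was found in 14 members (23%) and in 3.01% of all genes. These are counts of letters around listed starts, which may be some bases away from the starts used in this tissue.

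Total counts ranged from 102844680 to 128730695 per library. Retsat, reported in counts per 1000000 (CPM, scaled by trimmed mean of M-values), was at 518, 387, 576, 340 and 381 in control 1 to 5 and at 16.8, 16.0, 16.4, 15.4 and 33.4 in RetSat ko 1 to 5, so each library matched its label. All 10 markers of intestinal epithelium were found and none was at 0 in any library. Of these 10, 1 had an estimate above 0, against 53.9% of all genes, with a median log2 fold change of -0.20. In edgeR 3 were lower at an unadjusted p under 0.05, against 5.45% of all genes, and 0 were called. RetSat ko 1 stood apart from the other RetSat ko libraries: its epithelial markers summed to 53109 CPM, against 32466 to 35768 in RetSat ko 2 to 5 and 36646 to 54917 in the controls. The markers of crypt and dividing cells (10 of 10 found, none at 0) summed to 752 CPM in it, against 959 to 1125 in RetSat ko 2 to 5 and 721 to 935 in the controls. Markers of pancreatic acinar cells (10 of 10 found, with Cpa1, Cela2a, Prss2, Cel and Amy2a5 at 0 in some library) summed to 2504 CPM in RetSat ko 2, 454 in RetSat ko 1, 261 in control 5, 120 in control 4 and 15.1 to 53.0 in the rest. Markers of B cells (10 of 10 found, 5 of them at 0 in some library, among them Pax5, Fcer2a, Fcmr and Blk) summed to 169 CPM in RetSat ko 2, 72.1 in control 4, 45.5 in RetSat ko 3 and 7.28 to 13.2 in the rest. The estimate was above 0 for 9 of 9 acinar markers tested (median log2 fold change 3.31) and 8 of 8 B cell markers tested (1.70). In edgeR 0 of either list had an unadjusted p under 0.05. The summed levels of adipocyte markers (9 of 9 found, with Adipoq, Lep and Retn at 0 in some library) overlapped between the groups, at 252 to 416 CPM in control libraries and 230 to 363 CPM in RetSat ko libraries. The sums do not show how the single genes moved. Of these 9, 7 had an estimate above 0, with a median log2 fold change of 2.11. Retn (3.87) and Plin4 (1.05) were higher and Lipe lower (-0.24) at an unadjusted p under 0.05, and edgeR called 0. Adipoq (2.11), Plin1 (2.11), Lep (2.04), Cfd (2.32) and Car3 (2.57) were also above 0, and Cidec (-0.15) was below. The T cell marker sums (8 of 8 found, none at 0) were 38.9 to 100.3 CPM and 35.8 to 56.0 CPM, and those of smooth muscle (6 of 6 found, none at 0) 158 to 568 CPM and 396 to 718 CPM. The counts of members below are also given without RetSat ko 1 and after leaving out the libraries high in acinar or in B cell markers. The part of acinar, B cell, fat, T cell and muscle RNA was not tested.

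The estimated level of nearly every ribosomal protein gene was slightly higher in RetSat ko jejunum, by about the same small amount in both subunits, and no single gene passed the test across the transcriptome. The estimate was above 0 for 81 of 83 members, against 53.9% of all 18654 genes tested. The median log2 fold change was 0.22 (a 1.17-fold difference), with quartiles of 0.18 and 0.25 and a range of -0.18 to 0.32, against a median of 0.02 over all genes. In edgeR's quasi-likelihood test with Benjamini-Hochberg adjustment over all genes, 0 members were called in either direction (adjusted p from 0.291 to 0.875), where 0.0214% of all genes were called higher and 0.0107% lower. At an unadjusted p under 0.05, 73 members were higher, against 6.79% of all genes, and 0 were lower, against 5.45%. limma-voom called 0 members and DESeq2 called 12 of the 81 to which it gave an adjusted p, against 0.569% of all genes. In bulk tissue a different mix of cells and a different amount of RNA per cell cannot be told apart.

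The 12 members that DESeq2 called higher were Rpl11, Rpl14, Rpl31, Rpl35, Rpl36a, Rpl41 and Rplp1 of the large subunit and Rps12, Rps13, Rps15, Rps21 and Rps27a of the small subunit. In 24 members every RetSat ko library was above every control library, against 1.58% of all genes, and in 0 members the order was the opposite, against 0.729%. These 24 were 16 of the large subunit (Rpl11, Rpl13a, Rpl14, Rpl18, Rpl22, Rpl22l1, Rpl27, Rpl31, Rpl36, Rpl36a, Rpl36al, Rpl37a, Rpl38, Rpl41, Rplp1 and Rplp2) and 8 of the small subunit (among them Rps10, Rps12, Rps13, Rps15, Rps21, Rps23 and Rps27a). The 10 members with an unadjusted p of 0.05 or more were Rpl4, Rpl6l, Rpl7a, Rpl7l1, Rpl10, Rpl29, Rpl32l, Rps4l, Rps4x and Rps27l.

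**Figure D1:**
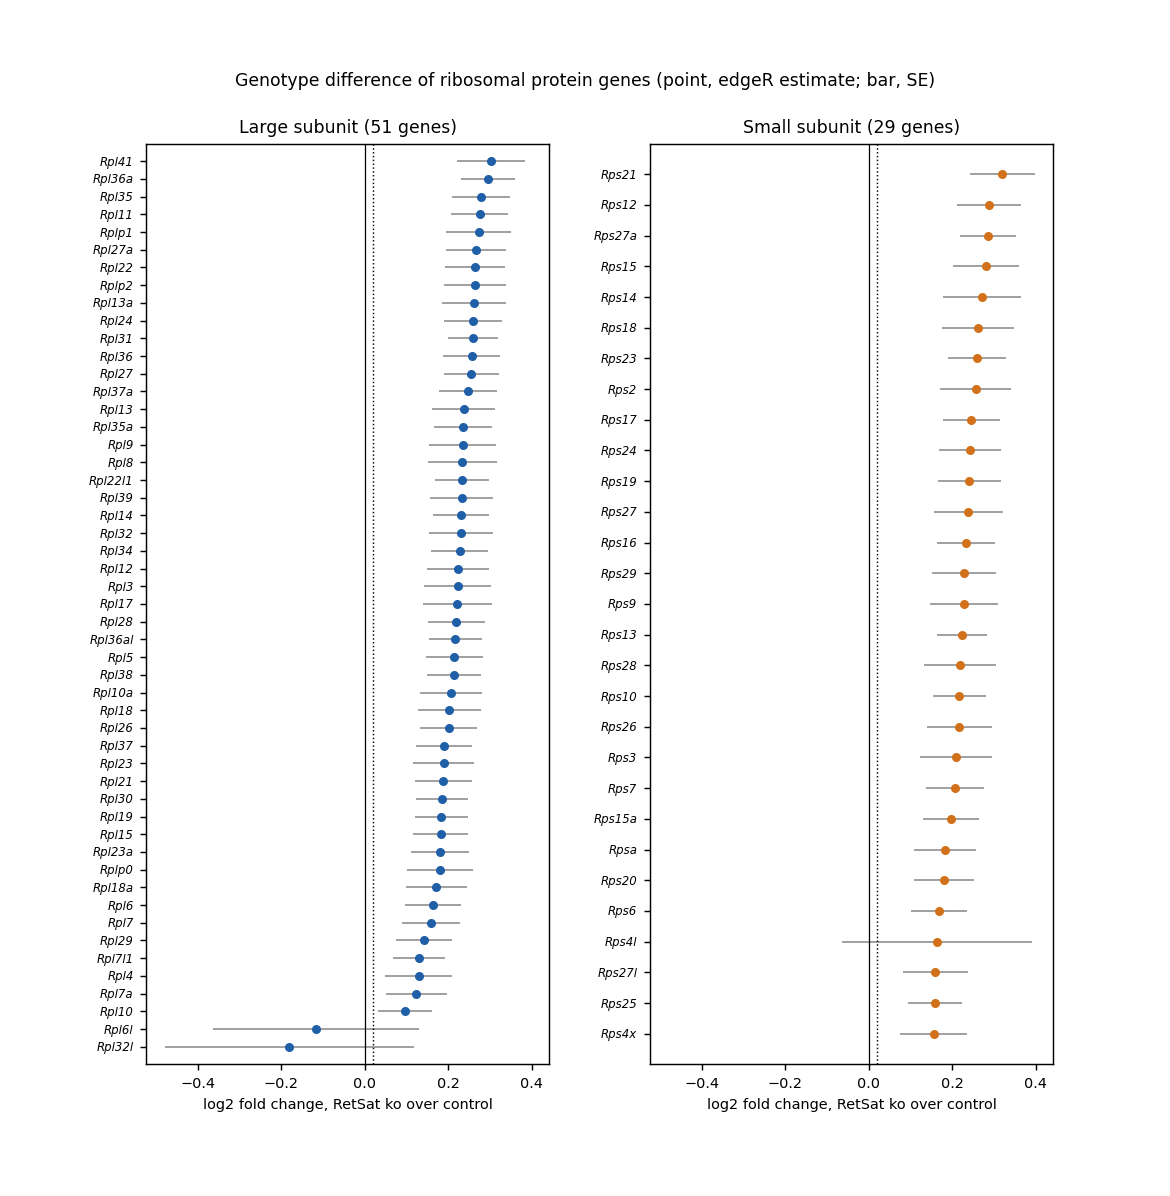
Log2 fold change of RetSat ko over control (horizontal axis) for 51 of 51 large subunit and 29 of 32 small subunit genes, ordered by size; points are edgeR estimates, bars 1 SE, the solid line 0 and the dotted line the median of all genes, 0.02. All points but those of Rpl6l and Rpl32l lie above 0, from 0.10 (Rpl10) to 0.32 (Rps21).

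The subunits did not separate. The median log2 fold change was 0.22 for the large subunit (49 of 51 above 0, 44 with an unadjusted p under 0.05) and 0.23 for the small subunit (32 of 32 above 0, 29 with an unadjusted p under 0.05). The ratio of summed large to summed small subunit counts was 1.31 ± 0.0179 (SD, n = 5) in control libraries, from 1.29 to 1.33, and 1.29 ± 0.0164 (SD, n = 5) in RetSat ko libraries, from 1.27 to 1.31. These ranges overlap, and the difference of -0.0185 between the means is about the size of the SD within a group.

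Library by library, the family made up 1.79%, 1.93%, 1.66%, 1.80% and 1.99% of counts in control 1 to 5 and 1.80%, 2.58%, 2.37%, 2.26% and 2.42% in RetSat ko 1 to 5. RetSat ko 2 to 5 lay above every control library, and RetSat ko 1 lay among the controls. The group means were 1.83% ± 0.129 (SD, n = 5) in control and 2.29% ± 0.294 (SD, n = 5) in RetSat ko. On the normalised log2 CPM scale the mean deviation of the members from each gene's overall mean was -0.097, -0.11, -0.14, -0.17 and -0.013 in control 1 to 5 and -0.0041, 0.23, 0.14, 0.032 and 0.13 in RetSat ko 1 to 5. On that scale RetSat ko 1 and control 5 were nearly level, and RetSat ko 2 was the highest of the 10. Normalisation moved RetSat ko 1 most, since its scaling factor was 0.889 where those of RetSat ko 2 to 5 were 1.06 to 1.08 and those of the controls 0.903 to 1.02.

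Counted by gene, 36 members were above the control range in RetSat ko 1, where 21.5% of all genes were. The count was 80 in RetSat ko 2 and 80 in RetSat ko 3, 59 in RetSat ko 4 and 78 in RetSat ko 5, where 21.3% to 26.7% of all genes were above it. At most 1 member in any RetSat ko library was below the control range.

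**Figure D2:**
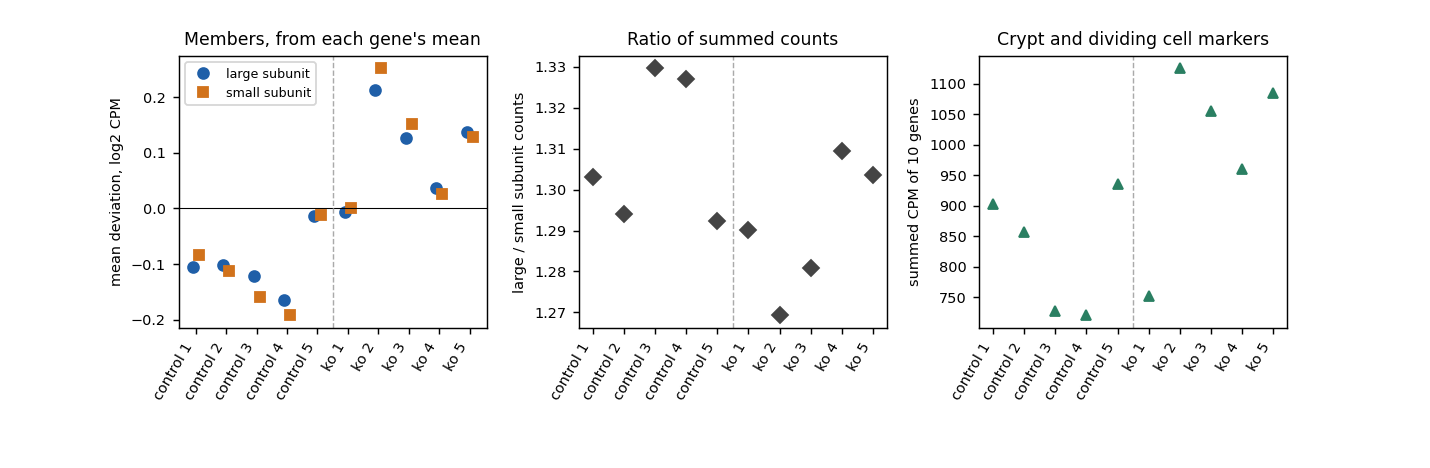
Left, mean deviation of large and small subunit members from each gene's mean (log2 CPM) in each library; middle, ratio of summed large to small subunit counts; right, summed CPM of 10 markers of crypt and dividing cells. Members and crypt markers are low in control 3 and control 4 and high in RetSat ko 2, 3 and 5, RetSat ko 1 has members near 0 with a low crypt sum of 752 CPM, and the ratio stays between 1.27 and 1.33.

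The sum of the crypt markers was compared with the family library by library. Its 3 highest sums, 1125, 1085 and 1056 CPM, were in RetSat ko 2, RetSat ko 5 and RetSat ko 3, the libraries with the 3 highest mean deviations of the members. The lowest crypt marker sums, 721 and 728 CPM, were in control 4 and control 3, the libraries with the lowest member deviations. Among controls, control 5 had the highest crypt sum (935 CPM) and the highest member level, and among RetSat ko libraries RetSat ko 1 had the lowest of both. Between the groups RetSat ko 1 departed from this order: its member deviation was above that of every control, but its crypt sum, 752 CPM, was below those of control 1, control 2 and control 5 (903, 858 and 935 CPM). All 10 crypt markers had an estimate above 0, against 53.9% of all genes, with a median log2 fold change of 0.29. In edgeR 5 of them were higher at an unadjusted p under 0.05, against 6.79% of all genes, and 0 were called. The epithelial marker sum was low, 32466 to 35768 CPM, in the 4 RetSat ko libraries in which the family was above all controls by its share of counts. Control 4 departed from this pairing: its epithelial sum, 36646 CPM, was nearly as low, but its member deviation, -0.17, was the lowest of all libraries and its share 1.80%. The part that cell mix has in the family's difference was not tested.

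Single libraries decided several counts. Without RetSat ko 1, edgeR called 34 members higher (21 large, 13 small), against 1.95% of all genes, the median log2 fold change was 0.25, and 58 members had groups that did not overlap, against 5.93%. The adjusted p was lowest for Rpl11 (0.0279, log2 fold change 0.31), named after its values were seen, a large subunit protein that can bind the p53 regulator MDM2. Without control 5, 62 members had groups that did not overlap, against 2.4% of all genes, but edgeR again called 0, against 0.0264% of all genes. Without the 3 libraries highest in B cell markers (RetSat ko 2, control 4 and RetSat ko 3), 9 members had an unadjusted p under 0.05, against 2.29% of all genes, and the median log2 fold change was 0.14. Without the 4 libraries highest in acinar markers (RetSat ko 2, RetSat ko 1, control 5 and control 4), 76 members had groups that did not overlap, against 12.5% of all genes. These 4 include RetSat ko 1 and control 5, the lowest RetSat ko library and the highest control by mean member deviation (-0.0041 and -0.013). Left out for B cell markers were the highest libraries by that measure, RetSat ko 2 and RetSat ko 3 (0.23 and 0.14). Control 4, the lowest (-0.17), was left out with them. Both refits removed extremes of the family itself, so the part of acinar or B cell RNA cannot be told apart from that removal. By share of counts RetSat ko 1 was the lowest and RetSat ko 2 the highest library of the RetSat ko group.

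Among the members of the large subunit, the highest estimates were those of Rpl41 (chr10:128383983-128385174, minus strand, on GRCm39 as the files give it), Rpl36a (chrX:133486403-133488811, plus strand) and Rpl35 (chr2:38891592-38895636, minus strand), counted over all their exons. Rpl41, whose product is among the shortest proteins known in the cell, was at 364, 385, 350, 338 and 397 CPM in control 1 to 5 and at 447, 513, 455, 409 and 436 CPM in RetSat ko 1 to 5. Every RetSat ko library was above every control library, by a narrow margin between RetSat ko 4 and control 5. Its log2 fold change was 0.30 ± 0.0816 (SE, n = 5 per group), with an adjusted p of 0.291 in edgeR.

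Rpl36a, an X-linked gene of the large subunit, had the smallest unadjusted p of the family (0.000605 in edgeR). Its CPM was 72.5, 67.6, 68.6, 66.0 and 70.2 in control 1 to 5 and 81, 95.8, 85.2, 77.9 and 83.2 in RetSat ko 1 to 5. The groups did not overlap, and the control values lay close together. Its log2 fold change was 0.29 ± 0.0643 (SE), with an edgeR adjusted p of 0.291 and a DESeq2 adjusted p of 0.0190. Rpl35, which sits near the exit of the tunnel through which the new protein leaves, was at 73.8, 75.7, 73.8, 70.4 and 84.0 CPM in control and at 83.0, 97.1, 97.3, 85.7 and 94.9 CPM in RetSat ko. The groups overlapped only through control 5 and RetSat ko 1. The log2 fold change was 0.28 ± 0.0696 (SE) and the edgeR adjusted p 0.291.

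The stalk of the large subunit recruits translation factors, and its base protein Rplp0 carries the small acidic proteins Rplp1 and Rplp2. Rplp1 was at 500, 493, 460, 458 and 530 CPM in control 1 to 5 and 554, 646, 604, 554 and 590 CPM in RetSat ko 1 to 5. Rplp2 was at 279, 277, 264, 255 and 287 CPM in control and 318, 365, 338, 295 and 318 CPM in RetSat ko. Neither gene's groups overlapped. Rplp0 was at 677, 692, 667, 692 and 776 CPM in control and 739, 839, 803, 770 and 819 CPM in RetSat ko, and overlapped through control 5. The log2 fold changes were 0.27 ± 0.0786 (SE) for Rplp1, 0.26 ± 0.0739 for Rplp2 and 0.18 ± 0.0793 for Rplp0, with edgeR adjusted p of 0.291, 0.291 and 0.395.

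Rpl8 and Rpl3 are core proteins next to the peptidyl transferase centre. Rpl8 was at 645, 644, 607, 596 and 692 CPM in control and 679, 824, 752, 717 and 771 CPM in RetSat ko, with a log2 fold change of 0.23 ± 0.0829 (SE) and an edgeR adjusted p of 0.321. RetSat ko 1 lay within the control values and the other 4 lay above them. The estimate for Rpl3 was 0.22 ± 0.0792 and its RetSat ko 1 value, 271 CPM, also lay among the controls at 265 to 289 CPM.

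In the small subunit Rps21 (chr2:179899170-179900238, plus strand, GRCm39) had the highest estimate of the family. Its CPM was 205, 208, 197, 196 and 227 in control 1 to 5 and 248, 296, 265, 233 and 247 in RetSat ko 1 to 5. No RetSat ko library was as low as any control, and RetSat ko 4 and control 5 were the nearest. The estimate was 0.32 ± 0.078 (SE) on the log2 scale, a 1.25-fold difference, with an adjusted p of 0.291 in edgeR and 0.0333 in DESeq2.

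Rps12 followed, at 288, 292, 290, 268 and 313 CPM in control and 334, 400, 363, 326 and 349 CPM in RetSat ko, with a log2 fold change of 0.29 ± 0.0764 (SE). Rps27a encodes ubiquitin joined to a small subunit protein, so its mRNA supplies both. It was at 164, 155, 162, 151 and 169 CPM in control and 190, 219, 198, 179 and 190 CPM in RetSat ko, with a log2 fold change of 0.29 ± 0.0678. Rps15, a protein of the small subunit head, had an estimate of 0.28 ± 0.0793. The groups of these 3 genes did not overlap, and each had an edgeR adjusted p of 0.291.

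Rps6 is the small subunit protein that S6 kinase phosphorylates downstream of mTORC1, and Rpsa is also known as the laminin receptor. Rps6 was at 128, 127, 128, 126 and 141 CPM in control and 129, 157, 151, 141 and 152 CPM in RetSat ko. The controls were nearly identical but for control 5, which was as high as RetSat ko 4. The log2 fold changes were 0.17 ± 0.0678 (SE) for Rps6 and 0.18 ± 0.0743 for Rpsa, with edgeR adjusted p of 0.359 and 0.360.

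**Figure D3:**
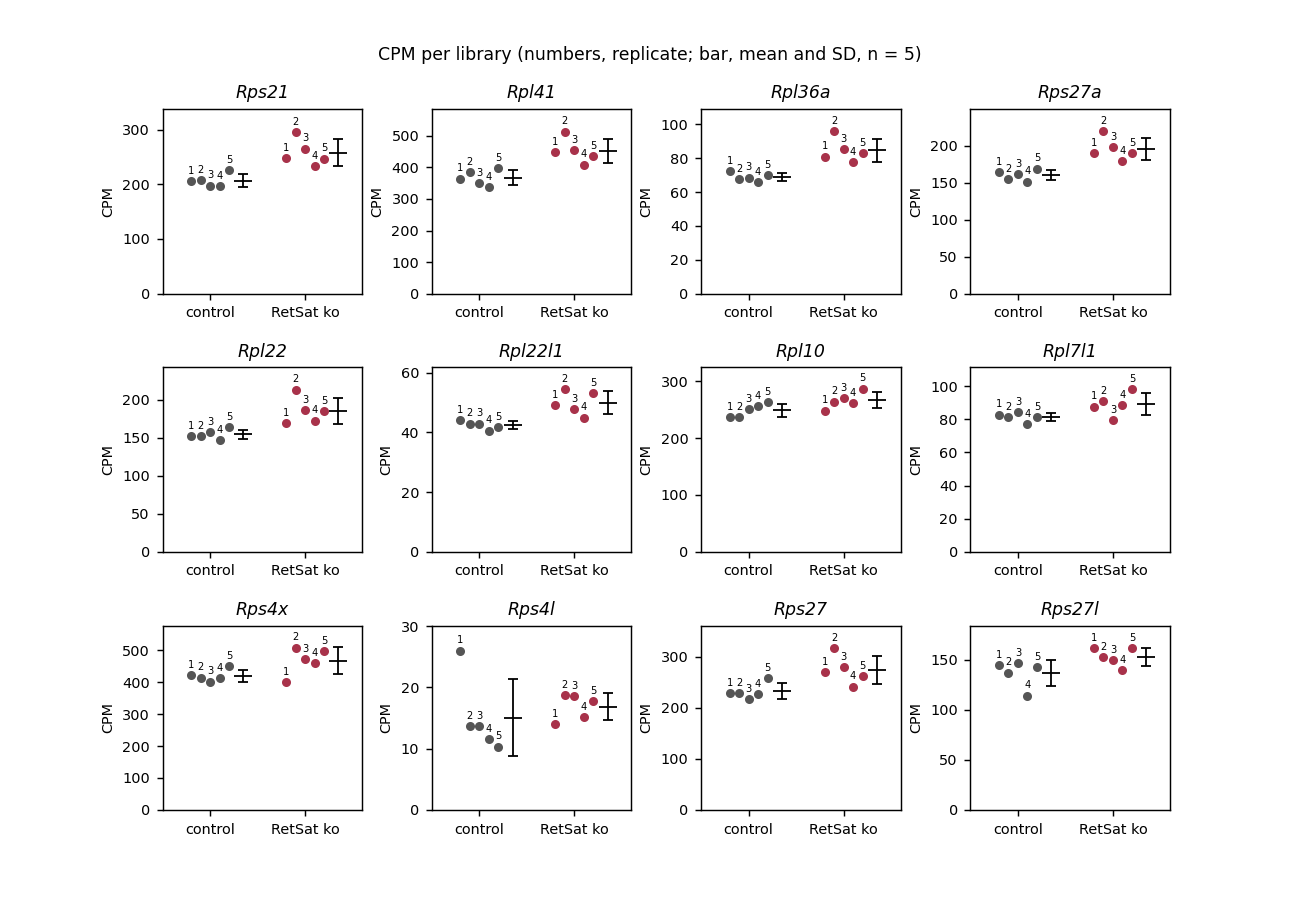
CPM (vertical axes, from 0) of 12 members in each of 5 control and 5 RetSat ko libraries; numbers are replicates, and bars are the mean and SD. The groups do not overlap for Rps21, Rpl41, Rpl36a, Rps27a, Rpl22 and Rpl22l1 and overlap for the other 6, and control 1 is the highest library for Rps4l.

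The lowest estimate of an abundant member was that of Rpl10 in the large subunit, followed there by Rpl7a, Rpl4 and Rpl7l1 at 0.12 to 0.13. In the small subunit the lowest 3 were those of Rps4x, Rps25 and Rps27l. Rpl10, a late-joining protein needed for the final maturation of the large subunit, was at 238, 237, 252, 257 and 263 CPM in control 1 to 5 and 249, 264, 271, 262 and 288 CPM in RetSat ko 1 to 5. Controls 3 to 5 lay among the RetSat ko values, so the groups overlapped. The estimate was 0.10 ± 0.0656 (SE), or 1.07-fold, at an edgeR adjusted p of 0.571. Rps4x, X-linked like Rpl10 and Rpl36a, was at 421, 414, 402, 412 and 450 CPM in control and 400, 508, 473, 460 and 497 CPM in RetSat ko. RetSat ko 1 was below all controls and the other 4 were above them, and the estimate was 0.16 ± 0.0808. Rps25, known for its part in translation from internal entry sites, had an estimate of 0.16 ± 0.0643, with a mean of 174 ± 6.48 CPM over controls and 194 ± 12.7 CPM over RetSat ko libraries (SD, n = 5).

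Several members are paralogs of a core gene. Rpl22, whose protein is known to repress its paralog Rpl22l1 in other settings, was at 152, 152, 158, 147 and 164 CPM in control and 170, 213, 187, 173 and 185 CPM in RetSat ko. Rpl22l1 was at 44.1, 42.9, 42.9, 40.5 and 41.7 CPM in control and 49.2, 54.4, 47.9, 44.9 and 53.0 CPM in RetSat ko. Both genes were higher in every RetSat ko library than in any control, with log2 fold changes of 0.26 ± 0.0722 (SE) and 0.23 ± 0.0637 and an edgeR adjusted p of 0.291 each.

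Rpl36al, the autosomal paralog of Rpl36a, was at 26.3 CPM in control 4 and 29.6 to 30.7 CPM in the other controls, and at 32.2, 35.5, 34.6, 32.5 and 36.0 CPM in RetSat ko, with an estimate of 0.22 ± 0.0637 (SE) and no overlap between the groups. Rps27 had an estimate of 0.24 ± 0.0827. Its paralog Rps27l, a p53 target, was at 144, 137, 146, 114 and 142 CPM in control and 161, 153, 149, 139 and 161 CPM in RetSat ko, with an estimate of 0.16 ± 0.0783. Control 4 was well below the other controls in Rps27l, and without it the estimate was 0.10. Rpl7 and its paralog Rpl7l1 had estimates of 0.16 ± 0.0698 and 0.13 ± 0.0631, with RetSat ko 3 at 79.7 CPM of Rpl7l1 lying inside the control range of 77.2 to 84.4 CPM.

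Rps4l (chr6:148256154-148257096, plus strand, GRCm39), the autosomal paralog of Rps4x, was unlike the rest of the family. It was at 26.0, 13.7, 13.7, 11.5 and 10.3 CPM in control 1 to 5 and 14.0, 18.7, 18.6, 15.2 and 17.8 CPM in RetSat ko 1 to 5. Control 1 was the highest library of all 10, and the other 4 controls were below every RetSat ko library. The estimate was 0.16 ± 0.229 (SE) on the log2 scale, with an edgeR adjusted p of 0.799, and without control 1 it was 0.45 with an adjusted p of 0.405. The estimate was -0.0475 without the 4 libraries highest in acinar markers and -0.0293 without the 3 highest in B cell markers, so the direction of Rps4l rests on the libraries kept.

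Only Rpl6l and Rpl32l had estimates below 0, and they are barely expressed. Rpl6l was at 0.306 to 0.699 CPM in control and 0.375 to 0.532 CPM in RetSat ko, and Rpl32l at 0.138 to 0.271 CPM and 0.115 to 0.283 CPM. Their log2 fold changes were -0.12 ± 0.247 (SE) and -0.18 ± 0.298, and that of Rpl6l was 0.021 without control 2. In counts, Rpl32l had 16 to 33 and Rpl6l 33 to 91 per library, the lowest among those that met the minimum of 10. The 4 symbols below it were Rpl3l, a muscle paralog of Rpl3, with 0 to 10 counts, Rpl39l, known from male germ cells, with 0 to 2, and Rpl10l, also known from male germ cells, and Rps12l1, with 0 counts in every library. A count of 0 allows up to 3 counts, or 0.0292 CPM in the shallowest library, for counting error only.

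Levels between genes were compared as CPM per kilobase of exon. Rplp1 was the highest at 979 ± 60.4 CPM per kb (SD, n = 5 controls), ahead of Rps15 at 532 and Rpl8 at 469. Without Rpl6l and Rpl32l, which stood at 0.589 and 0.549 CPM per kb, the median level was 86.6 CPM per kb over 49 large subunit members and 133 over 32 small subunit members. The 10th and 90th percentiles of these 81 genes, 30.1 and 310 CPM per kb, were 10.3-fold apart. Rps4l (16.0), Rps10 (15.3) and Rpl24 (13.3, named after its values were seen) were at the low end.

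The length in the files adds all annotated exons of a gene, and for many members it is far longer than the principal transcript. With the principal transcript's length, matched in an older annotation, the medians were 205 CPM per kb for large and 255 for small subunit members, and the 10th and 90th percentiles were 7.94-fold apart. Rplp1 stayed the highest at 979, followed by Rps14 at 749, Rpl8 at 748, Rps27 at 673 and Rps15 at 670 CPM per kb. The rank correlation between the orders by the 2 lengths was 0.889 over 83 genes.

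**Figure D4:**
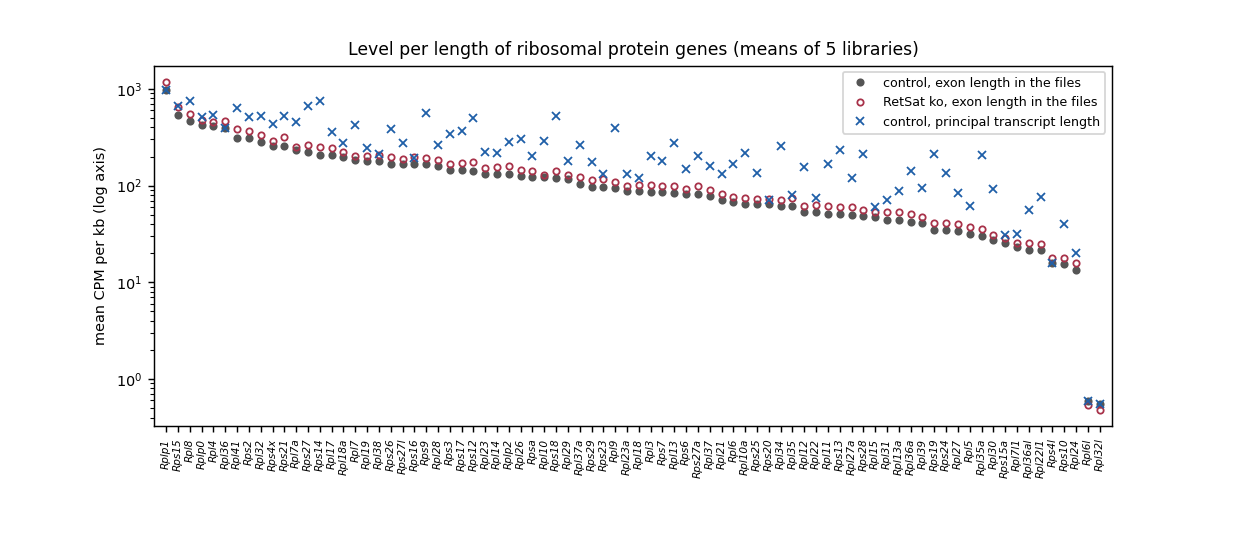
Mean CPM per kb (log axis) of 80 of the 83 members in control and RetSat ko with the exon length that the files give, and in control with the length of the principal transcript. Rplp1 is the highest by both lengths at 979 CPM per kb, RetSat ko points lie just above control points but for Rpl6l and Rpl32l, which stand apart at 0.589 and 0.549 CPM per kb in control.

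Pseudogene copies bear on such levels, since reads that match several places were not counted. Of the members, 61 have pseudogenes that carry their name with -ps, 299 in all, of which 241 had counts. Copies under other names were not searched. Their counts were 0.373% of all member counts, with the highest shares for Rps10 (8.61% of its own counts), Rpl14 (5.17%) and Rpl36a (5.06%). These shares do not measure the reads that a member lost because they also fit a copy. The level of any member with such reads is therefore uncertain, whether or not its share was high.

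Members moved together across the 10 libraries. The Pearson correlation of a member's log2 CPM with the mean of the other members had a median of 0.95 and a maximum of 0.994, and was 0.991 for Rpl8. It was lowest for Rpl6l (-0.15), Rpl32l (-0.11) and Rps4l (0.35), followed by Rpl7l1 (0.61), Rps27l (0.63) and Rpl10 (0.68). These values describe 10 libraries that share the group difference, depth and scaling, and are not a test. The spread within a group was small: the coefficient of variation of CPM, over the 81 genes without Rpl6l and Rpl32l, had a median of 5.35% among controls and 7.56% among RetSat ko libraries. The highest among controls was that of Rps4l at 41.8%.

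The size of the estimate varied with transcript length within the family. The 20 members with the shortest principal transcripts (345 to 584 bases) had a median log2 fold change of 0.24, and the 20 with the longest (1158 to 5179 bases) a median of 0.19. Spearman's correlation between log2 fold change and length was -0.376 over 81 members, -0.196 over 18609 genes with a length and -0.416 over the 5323 of them at 30 CPM or more. These are correlations across genes, which are not independent replicates. At 30 CPM or more and at most 1000 bases, 52 of 52 members were above 0 with a median of 0.23, and 256 of 316 other genes (81%) were above 0 with a median of 0.11. Other abundant genes of 1000 to 2000 bases had a median of 0.0074, those of 2000 to 4000 bases -0.069, and longer ones -0.13.

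Most short transcripts outside the family at 30 CPM or more thus also had estimates above 0, with a lower median than the members. Per library, the mean deviation of the 20 shortest members minus that of the 20 longest was -0.068 to -0.0039 in control and 0.080, 0.054, 0.051, -0.039 and -0.015 in RetSat ko 1 to 5. The groups overlapped in this measure, and RetSat ko 4 and 5 lay with the controls. The part that transcript length has in the family's difference was not tested.

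**Figure D5:**
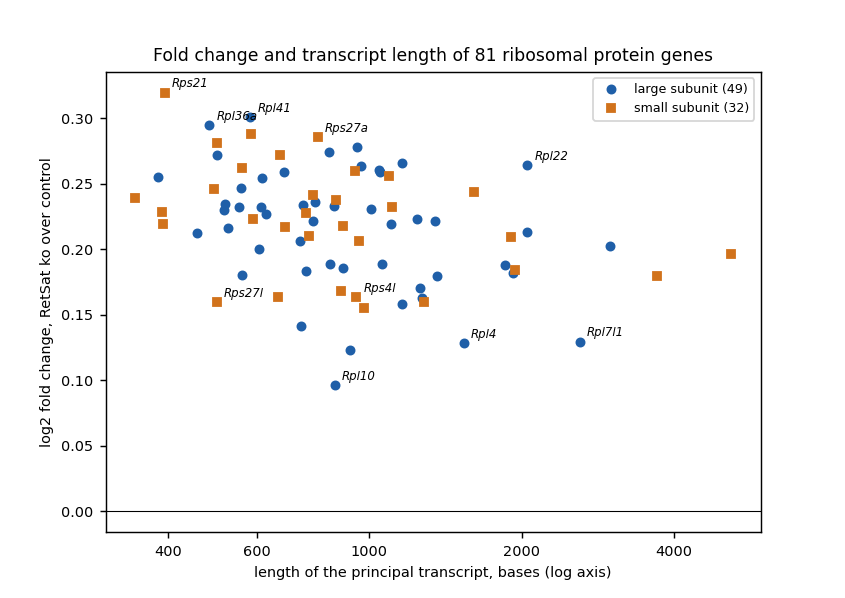
Log2 fold change of RetSat ko over control against the length of the principal transcript (bases, log axis) for 49 large and 32 small subunit members, Rpl6l and Rpl32l left out. All 81 points lie above 0, and the 20 shortest have a median of 0.24 against 0.19 for the 20 longest.

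Genes that work with the ribosomal proteins were read from lists that were not picked by how they moved in these fits, though earlier results of these data were known. In edgeR, 0 genes of each list were called in either direction, beside the 0.0214% and 0.0107% of all genes. Of the ribosomal protein genes whose symbols fall outside the rule, 6 of 6 had an estimate above 0, with a median of 0.17 and 3 higher at an unadjusted p under 0.05. Over all genes 53.9% had an estimate above 0, and at an unadjusted p under 0.05, 6.79% were higher and 5.45% lower, which is the background for this and the next lists. That background is not matched for length or level. At 30 CPM or more, 81% of genes outside the family of at most 1000 bases were above 0, and 17.8% of those above 4000 bases. Rpl37rt, a retrotransposed copy of Rpl37, had an estimate of 0.29.

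Translation factors and partners whose mRNAs are known to carry a TOP tract had a lower median, 0.095, with 14 of 16 above 0, 5 higher at an unadjusted p under 0.05 and 0 lower. Npm1, a nucleolar chaperone of ribosome assembly, had an estimate of 0.25, and Eef1d, a subunit of the elongation factor that reloads eEF1A, of 0.19 (edgeR adjusted p 0.314 and 0.313). Eef1a1, which delivers aminoacyl-tRNA, had an estimate of 0.02 at 3693 CPM in control, and Eef2, which moves the ribosome along, of -0.12. These 2 genes, the most abundant of the list, and the ones that follow were named after their values were seen. Tpt1 had an estimate of 0.082 at 651 CPM in control and Pabpc1 of 0.044 at 604 CPM. Eef1b2, a further subunit of that exchange factor, had an estimate of 0.21 at 374 CPM in control, and Eif4b of -0.091 at 351 CPM. The difference between the lists was not tested.

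Host genes of small nucleolar RNAs, many of which are also TOP transcripts, had a median of 0.26, with 12 of 12 tested (of 13 listed) above 0 and 6 with an unadjusted p under 0.05. Snhg1 was at 10.9 ± 0.797 CPM in control and 14.5 ± 1.95 in RetSat ko, a log2 fold change of 0.41 that DESeq2 called, and Snhg8 had an estimate of 0.27. Regulators of mTORC1 and of TOP mRNAs had a median of 0.018, with 11 of 21 above 0, near the share over all genes, and 1 higher and 2 lower at an unadjusted p under 0.05. Myc, a transcription factor of ribosome production and of crypt cells, had an estimate of 0.46 (13.2 ± 1.93 CPM in control, 18.1 ± 3.46 in RetSat ko), and Mtor, the kinase itself, of -0.19 (edgeR adjusted p 0.300 and 0.314). Chaperones that escort single ribosomal proteins had a median of 0.14, with 7 of 7 tested (of 8 listed) above 0, led by Bccip, a chaperone of Rpl23, at 0.22 and Grwd1, a chaperone of Rpl3, at 0.29.

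Without RetSat ko 1, edgeR called genes of these lists higher, among them Rpl37rt, Npm1, Eef1d, Hnrnpa1, Snhg1, Myc and Grwd1, beside the 1.95% of all genes called higher in that fit.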

How the data were processed

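RNA from mouse jejunum was profiled in 10 libraries, 5 per group, grouped by their titles and genotypes. The authors deposited raw counts per gene for each library: per the submitters' processing notes the tools were Trimmomatic, STAR and featureCounts 2.0.1 on GRCm39, also called mm39. The recorded command, per the file headers, used an exon annotation with no strand, pair or multi-mapping option, so reads of antisense or overlapping genes and reads that match several places cannot be assigned with certainty. Gene identifiers were given symbols from a reference table (52081 of 55414 matched).

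Counts were tested with edgeR 4.0.16 (quasi-likelihood, trimmed mean of M-values, default expression filter, 18654 genes, no covariate) in R 4.3.3, with Benjamini-Hochberg adjustment over all genes and a threshold of 0.05. Sensitivity fits used DESeq2 1.42.0, limma 3.58.1 (voom), other scaling factors and filters, a replicate block and each library left out in turn. The code was tested on simulated data. CPM are counts per 1000000 with the same scaling. Depth was 102844680 to 128730695 counts per library, and intervals and floors cover counting error only. All 45 pairs of libraries differed beyond sampling noise (lowest chi-square per degree of freedom 49.6).

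Members and gene lists were chosen with earlier results of these data known. Apart from Retsat and cell type markers, the genes given values were those past the threshold, the 3 highest and 3 lowest fold changes and the 2 highest and 2 lowest levels per kb of each subunit, paralogs with their parent genes, the stalk genes with Rpsa, Rps6 and Rps27a, the 3 lowest and 3 highest correlations with the other members, and the 2 smallest p of each pathway list. Eef1a1, Eef2, Eef1b2, Eif4b, Pabpc1, Tpt1, Rpl11, Rpl24 and the promoters of Rps6, Rps18 and Rpl15 were chosen after their values or sequences were seen. The refits without libraries rich in acinar or B cell markers, the principal transcript lengths and the relation to length were added after seeing the data. Promoters are from RefSeq on GRCm38.p6, and principal transcript lengths from GENCODE M21, matched by gene. The replicate numbers do not pair the samples. Some genes are not reported here by name, and 3 members are left out of the plots that label every gene; all counts, medians and fits include them.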

Additional observations from a re-analysis of the deposited data

Results flagged for a closer look

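In 6 of 70 groups of 5 libraries tested, 1 library lay far from the other 4 of its group by Dixon's criterion (gap over range above 0.71). For independent groups chance alone meets this in about 1 in 20. These groups are genes measured in the same libraries, and members moved together, so the 6 are not separate events. The mean member deviation was -0.013 in control 5, against -0.17 to -0.097 in the other controls. Control 5 was high for Rplp0 at 776 CPM (others 667 to 692), for Rps27 at 259 CPM (others 218 to 229) and for Rps6 at 141 CPM (others 126 to 128). Control 4 was low for Rps27l at 114 CPM (others 137 to 146) and for Rpl36al at 26.3 CPM (others 29.6 to 30.7). Control 1 was high for Rps4l at 26.0 CPM (others 10.3 to 13.7).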

How the results depend on the processing

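The 32 named members kept their direction under the RLE, upper-quartile, absent and member-free TMM factors, without a filter, in DESeq2, in limma-voom and with the replicate block; with a filter of 1 CPM, 30 did and Rpl6l and Rpl32l had no value. DESeq2 called 12 members (67 genes higher, 56 lower). With no scaling factors the medians were 0.33 for all members, 0.32 for large and 0.33 for small subunit members, and that of all genes was 0.12. Over all genes, 4 were called lower with no filter and 2 higher with the 1 CPM filter. The replicate numbers share only a number (correlations of same-numbered libraries from -0.23 to 0.014, none the best partner). With the replicate block 0 members were called, the median was 0.22, and 3 genes were called higher and 1 lower. In that edgeR fit 67 members had an unadjusted p under 0.05, a count for which the share over all genes was not taken. Leaving out each library in turn, members called ranged from 0 to 34, members with an unadjusted p under 0.05 from 57 to 77, members without overlap from 24 to 62, genes called higher from 3 to 371 and lower from 2 to 475, the median from 0.19 to 0.25, the large minus small median from -0.022 to 0.010 (-0.00377 with all libraries) and Rpl6l from -0.26 to 0.021. Over all genes the share was 1.95% beside the 34 members called and 2.4% beside the 62 without overlap. It was not taken for the leave-one-out counts by unadjusted p. Without the 4 acinar-rich libraries 76 members had no overlap, against 12.5% of all genes. In that fit 1 gene was called lower, the large minus small median was 0.0076 and Rps4l was at -0.0475. Without the 3 B cell-rich libraries 9 members had an unadjusted p under 0.05 in edgeR, against 2.29% of all genes, and 1 gene was called lower. The medians were then 0.14 for all, 0.14 for large and 0.13 for small, the large minus small median was 0.010 and Rps4l was at -0.0293. The log2 ratio of large to small subunit counts was -0.021 from sums and -0.0493 from member medians. The causes of these shifts were not tested. Depth did not limit the abundant members; Rpl6l and Rpl32l rest on 16 to 91 counts per library.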
